A study of Homo sapiens with 9 samples.

Results

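The genes described here are 10 genes listed with the Notch pathway, chosen by symbol from a table of 18430 genes. They are the receptors NOTCH1, NOTCH2 and NOTCH3, the ligands JAG1 and JAG2, and HES1, HES2, HEY1, HEY2 and NRARP, called targets below. That name follows the list, and whether Notch drives each of these targets, HES2 among them, in these cells was not tested. The 10 genes were measured by RNA-seq in 9 libraries of A375 cells, a long-established line from a human melanoma. All groups carry BRAFV600E, an activating mutation of the kinase BRAF. In 3 libraries the cells had been exposed for 3 days to vemurafenib, which inhibits mutant BRAF, at 10 µM, and in 3 others for 1 day to the DNA-crosslinking platinum compound cisplatin at 2 µM. Both were then kept without drug and collected on day 7, and the controls (3 libraries) were A375 cells in normal culture, for which the labels name no separate collection time. The drugs therefore differed in dose, in exposure and in time without drug, and these cannot be told apart from the drug itself. All values are of 1 cell line.

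Notch receptors are single-pass membrane proteins that are activated by ligands of the Jagged and Delta families on a neighbouring cell. Ligand binding lets an ADAM protease and then the gamma-secretase complex cut the receptor, and the freed intracellular domain enters the nucleus, where it joins the DNA-binding protein RBPJ and a Mastermind coactivator. The best known direct targets include some of the HES and HEY genes, which encode basic helix-loop-helix repressors. NRARP, another target, encodes a feedback inhibitor of the pathway. In the melanocyte lineage, Notch signalling through RBPJ and HES1 is known for maintaining melanoblasts and melanocyte stem cells in the mouse.

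The promoters of HES1, HEY2 and HES2 are given first, because these are the target genes among the members that fell after vemurafenib. They are from RefSeq (GRCh38.p14), run 5′ to 3′ on the gene's own strand from 250 bases before to 20 bases after the annotated start, and the capitals mark TGGGAA or its reverse complement TTCCCA, the core of the site that RBPJ reads.
HES1: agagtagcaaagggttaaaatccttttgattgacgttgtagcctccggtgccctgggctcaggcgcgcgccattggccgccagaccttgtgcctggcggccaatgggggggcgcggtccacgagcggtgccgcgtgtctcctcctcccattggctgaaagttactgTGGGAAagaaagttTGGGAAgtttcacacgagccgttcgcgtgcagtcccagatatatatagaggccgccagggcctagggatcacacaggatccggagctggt
HEY2: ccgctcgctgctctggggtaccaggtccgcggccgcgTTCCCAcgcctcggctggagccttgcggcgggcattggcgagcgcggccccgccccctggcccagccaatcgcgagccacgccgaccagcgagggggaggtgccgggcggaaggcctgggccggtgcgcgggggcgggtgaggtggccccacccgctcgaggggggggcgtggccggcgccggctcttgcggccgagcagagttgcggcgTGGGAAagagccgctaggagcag
HES2: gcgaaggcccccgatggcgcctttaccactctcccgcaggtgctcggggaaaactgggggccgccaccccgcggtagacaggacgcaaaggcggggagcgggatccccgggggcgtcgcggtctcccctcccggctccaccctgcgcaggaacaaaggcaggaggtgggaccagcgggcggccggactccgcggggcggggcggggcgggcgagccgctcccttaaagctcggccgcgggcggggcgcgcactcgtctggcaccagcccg

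The HES1 window is chr3:194135898-194136167 (plus strand), the HEY2 window chr6:125749382-125749651 (plus strand) and the HES2 window chr1:6419900-6420169 (minus strand). HES1 held 2 copies of the core, whose first bases lie 84 and 70 bases upstream of the start, both in the same orientation. HEY2 held 2 in opposite orientations, at 213 and 3 bases upstream. HES2 held none in the 300 bases searched (250 before and 50 after the start, both strands). HEY1 had no promoter entry and was not searched. Of the 9 members with an entry, HES1 and HEY2 were those with a match. Of 35116 promoters of the same length, 24.0% held at least 1. A second motif, CACGNG, the class C site of HES and HEY repressors, occurred 4 times in the HES1 promoter and was absent from those of NOTCH1, HES2 and HEY2. NRARP held 3 of these sites, JAG2 held 2, and NOTCH2, NOTCH3 and JAG1 held 1 each. Of all promoters searched, 30.5% held the second motif. A match is a description of letters and not of binding.

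By RefSeq coordinates on GRCh38, NOTCH1 (gene identifier 4851) lies at chr9:136494433-136546048, NOTCH2 (4853) at chr1:119911553-120069662 and NOTCH3 (4854) at chr19:15159038-15200995, each on the minus strand. JAG1 (182) lies at chr20:10637684-10673999 and JAG2 (3714) at chr14:105140995-105168776, also on the minus strand. HES1 (3280) is at chr3:194136148-194138732, HES2 (54626) at chr1:6415232-6419919, HEY1 (23462) at chr8:79764010-79767767, HEY2 (23493) at chr6:125749632-125761269 and NRARP (441478) at chr9:137299631-137302271. The receptors are long genes in the GENCODE 29 annotation, with 10377, 16807 and 9394 exonic bases for NOTCH1, NOTCH2 and NOTCH3, whereas HES1 has 2062 and the single-exon NRARP 1770. In the same annotation JAG1 shares 79 exonic bases with an antisense gene, and JAG2 shares 469 with a noncoding gene on its own strand. The labels do not state whether strand was kept, and reads in these stretches cannot be told apart.

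The libraries held 14481020 to 16038475 estimated counts each, and 13989 genes, among them 9 of the 10 members, passed the filter on low counts and were tested. The labelled cell type was checked against melanocytic markers: the lineage factor SOX10 averaged 1093, 836.4 and 1060 CPM in vemurafenib, cisplatin and control libraries, and the 8 listed markers summed to 1630 to 2062 CPM, 1577 to 1787 CPM and 1190 to 1380 CPM in libraries of these groups. The list did not move as one. The pigment genes MLANA and TYR stayed at or below a group mean of 0.316 CPM, but DCT, also a pigment gene, averaged 275.1 CPM after vemurafenib, 0.683 CPM after cisplatin and 0.0863 CPM in controls. S100B averaged 268.0, 136.4 and 15.1 CPM in the same order of groups, the lineage factor MITF 82.0, 37.2 and 35.8 CPM, S100A1 144.7, 673.7 and 178.3 CPM, and PMEL 1.68, 4.32 and 1.72 CPM. The part of these markers in the members' results was not tested. CDH5, 1 of 7 endothelial markers, had no count in vemurafenib and control libraries and averaged 0.0231 CPM after cisplatin. The 7 summed to 18.4 to 34.8 CPM after vemurafenib, 57.5 to 64.8 CPM after cisplatin and 23.6 to 28.1 CPM in controls. CDH1, from the list of keratinocyte and epithelial markers, had no count in vemurafenib and control libraries and averaged 0.113 CPM after cisplatin. Of 5 blood markers none was tested, and the 4 in the table summed to at most 0.733 CPM in a library. The 6 fibroblast markers summed to 30.2 to 41.4 CPM in vemurafenib, 16.96 to 29.8 CPM in cisplatin and 21.2 to 23.2 CPM in control libraries. In the same order LUM averaged 12.8, 13.0 and 3.13 CPM and DCN 3.21, 2.55 and 0.96 CPM. COL1A1 averaged 1.13, 2.17 and 3.46 CPM and PDGFRB 17.5, 5.14 and 14.3 CPM. COL1A2 and DPT stayed at or below a group mean of 0.102 CPM. Vemurafenib replicate 1 stood apart from replicates 2 and 3: its difference from them ran with effective transcript length, at a rank correlation of -0.594 over the tested genes (Spearman), which are not independent replicates of each other. For NOTCH2, NOTCH3, JAG1 and HEY2 the change after vemurafenib against control is given with and without this library. In bulk RNA, fewer cells of a type and less RNA per cell cannot be told apart, and since separate cultures are not stated for the replicates, each p-value below reflects the spread among these libraries, which may be technical.

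Levels can be compared between genes as TPM, which divides by transcript length. After vemurafenib NOTCH2 (46.2 ± 20.3 TPM) and HES1 (31.3 ± 5.87 TPM) overlapped at the top, and HEY1 came next at 17.8 ± 0.42 TPM (SD, n = 3 for each mean here and below). The overlap came through replicate 1, where NOTCH2 had 23.2 TPM. In replicates 2 and 3 NOTCH2 had 61.4 and 54.1 TPM, above all HES1 values (25.6 to 37.3 TPM). NOTCH1 (10.2 ± 1.72 TPM), JAG1 (5.59 ± 3.44 TPM) and NOTCH3 (3.99 ± 0.05 TPM) overlapped from one to the next. These overlaps also came through replicate 1, where NOTCH1 had 8.23 TPM and JAG1 2.62 TPM. In replicates 2 and 3 NOTCH1 had 11.3 and 11.1 TPM and JAG1 4.80 and 9.36 TPM. NOTCH3 reached 4.04 TPM at most. HEY2 (0.737 ± 0.463 TPM), JAG2 (0.107 ± 0.0231 TPM) and HES2 (0.02 ± 0.0173 TPM) followed without overlap between them.

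After cisplatin NOTCH2 led at 61.8 ± 1.75 TPM, and HES1 (45.3 ± 4.07 TPM) and JAG1 (44.0 ± 1.3 TPM) overlapped below it. NOTCH1 stood at 9.04 ± 1.25 TPM, and HEY1 (4.63 ± 0.874 TPM) and NOTCH3 (4.20 ± 0.285 TPM) overlapped. HEY2 (2.01 ± 0.386 TPM), HES2 (0.89 ± 0.157 TPM) and JAG2 (0.447 ± 0.227 TPM) were the lowest tested members, without overlap between neighbours.

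In control cells HES1 (101.2 ± 22.2 TPM) and NOTCH2 (94.8 ± 5.49 TPM) were the most abundant members, and their libraries overlapped. JAG1 followed at 31.0 ± 2.03 TPM, NOTCH1 at 14.5 ± 1.66 TPM and HEY1 at 7.78 ± 1.16 TPM, with no overlap between neighbours. NOTCH3 (4.80 ± 0.246 TPM), HEY2 (4.35 ± 1.12 TPM) and HES2 (2.79 ± 1.2 TPM) overlapped from one to the next, and JAG2 was lower at 1.20 ± 0.231 TPM. NOTCH2 was thus the main receptor transcript of the members in each group, and JAG1 the main ligand transcript. NRARP was at or close to 0 in all groups.

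**Figure D1:**
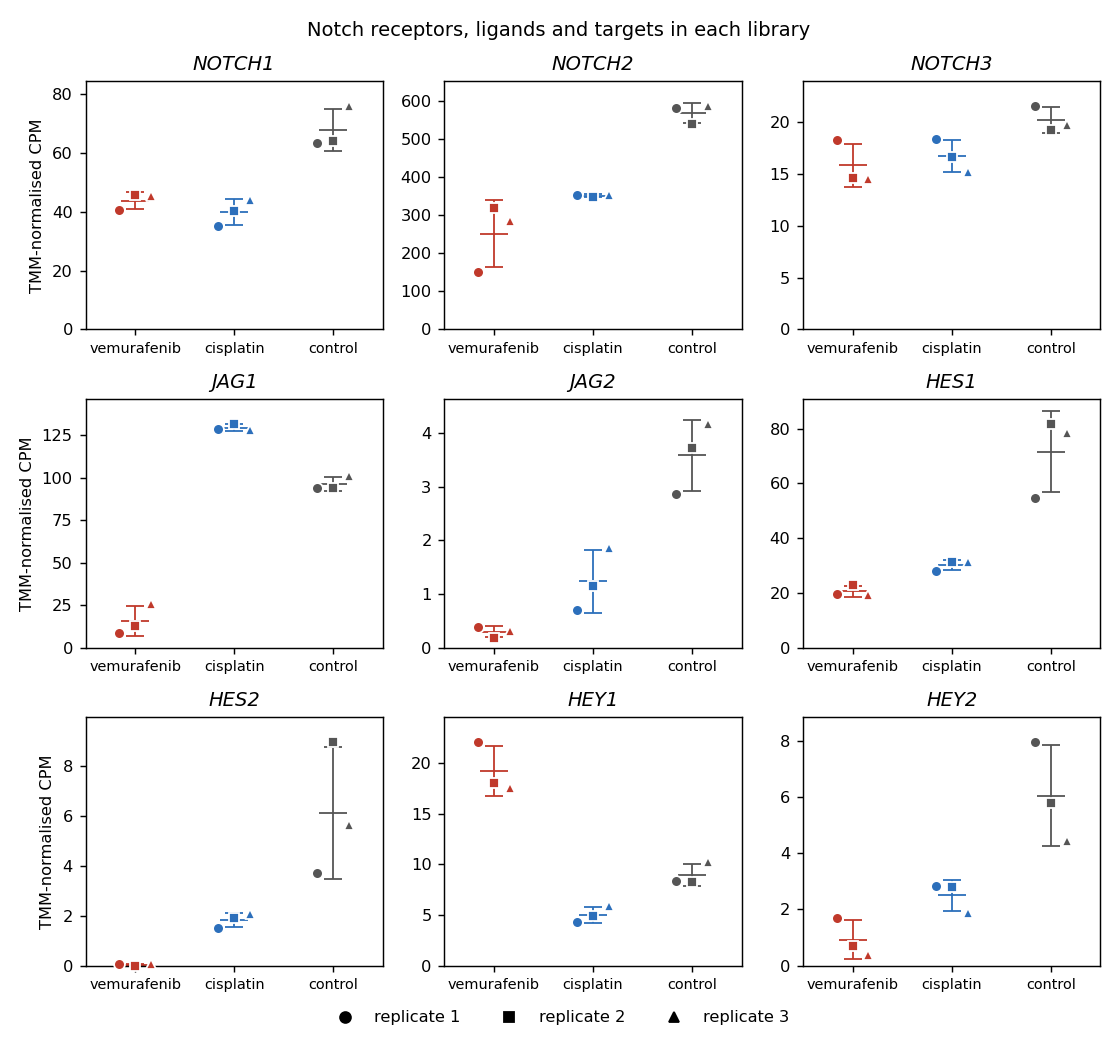
TMM-normalised CPM of the 9 tested members (vertical axes from 0, a scale for each gene) in each vemurafenib, cisplatin and control library; symbols mark replicates, the horizontal tick is the mean and the bar 1 SD (n = 3). JAG1 sits at 8.84 to 25.5 CPM after vemurafenib, 127.9 to 131.5 CPM after cisplatin and 94.0 to 100.9 CPM in controls, and HEY1 is the gene with its highest level after vemurafenib.

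On day 7 after vemurafenib, 7 of the 9 tested members were lower than in controls, 1 was higher (HEY1) and 1 (NOTCH3) did not pass, with a median log2 change of -1.80. So 8 of 9 were called, where 44.9% of all 13989 tested genes were. Both ligands and 3 of the 4 tested targets were among those that fell. Over all tested genes 22.9% were lower, 22.0% were higher and the median log2 change was 0.01. A log2 change of -1 or less with a call was found for 6 of the 9 members and 10.1% of all tested genes. The 3 vemurafenib values did not overlap the 3 control values for any of the 9 tested members, 8 of which lay below and 1 above, where 52.8% of all tested genes did not overlap. Calls rest on the quasi-likelihood F test of edgeR, with p-values adjusted over all tested genes (Benjamini-Hochberg, threshold 0.05), and levels below are TMM-normalised CPM, counts scaled to a common library size.

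Among the ligands, JAG1, the Jagged ligand with most transcripts here, had 8.84, 12.8 and 25.5 CPM in vemurafenib libraries, against 94.0, 94.0 and 100.9 CPM in control libraries. Each vemurafenib library was far below the lowest control, although replicate 3 stood well above replicates 1 and 2. The log2 change was -2.61 (SE 0.281, adjusted p = 1.98e-05), a 6.11-fold fall, and -2.32 without vemurafenib replicate 1 (adjusted p = 2.24e-06). JAG2, the second Jagged ligand, had 0.390, 0.187 and 0.306 CPM after vemurafenib, against 2.87, 3.72 and 4.17 CPM in controls. It rested on 14 counts over the vemurafenib libraries and 165 over the controls, and fell by 3.58 on the log2 scale (SE 0.408, adjusted p = 3.09e-05). On the log2(TPM + 1) scale, which understates changes of low genes, the change was -0.99 (adjusted p = 0.000148, range over the alternatives 1.72e-10 to 0.00026).

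NOTCH2, the most abundant receptor transcript, had 151.3, 317.5 and 285.4 CPM in vemurafenib libraries, against 580.1, 539.1 and 586.6 CPM in control libraries. All vemurafenib libraries lay below all controls, and replicate 1 was well below replicates 2 and 3. The log2 change was -1.18 (SE 0.21, adjusted p = 0.000812), and -0.91 without vemurafenib replicate 1 (adjusted p = 2.54e-06). NOTCH2 shares sequence with its partial copies NOTCH2NLA, NOTCH2NLB, NOTCH2NLC and NOTCH2NLR, so the split of reads among them is uncertain. On the log2 scale NOTCH2NLA fell by 1.71, NOTCH2NLB fell by 1.34, NOTCH2NLC fell by 1.34 and NOTCH2NLR fell by 0.67 (adjusted p = 2.11e-06, 3.16e-05, 3.62e-06 and 0.0135).

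NOTCH1 had 40.5, 45.6 and 45.3 CPM after vemurafenib, against 63.4, 64.0 and 76.0 CPM in controls. The groups did not overlap, and the log2 change was -0.63 (SE 0.119, adjusted p = 0.00117). NOTCH3 had 18.3, 14.6 and 14.6 CPM after vemurafenib, against 21.6, 19.2 and 19.8 CPM in controls. Its log2 change of -0.35 (SE 0.134, 95% interval -0.65 to -0.06) missed the threshold, with adjusted p = 0.0503. It passed with replicate number as a block (adjusted p = 0.0277) and without vemurafenib replicate 1 (-0.47, adjusted p = 0.00469). Over the alternatives its adjusted p lay between 0.00469 and 0.233. NOTCH4, the receptor best known from endothelium, was low, with 1.32 ± 0.261 CPM after vemurafenib and 1.499 ± 0.171 CPM in controls (adjusted p = 0.679).

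Of the targets, HES1, the repressor with 2 RBPJ cores in its promoter, had 19.7, 22.7 and 19.1 CPM in vemurafenib libraries, against 54.5, 81.7 and 78.2 CPM in control libraries. The vemurafenib values were tightly grouped, and control replicate 1 was the low one of its group. The fall was 3.48-fold (log2 change -1.80, SE 0.155, adjusted p = 3.48e-06). HEY2, a repressor known from heart and vessel development, had 1.69, 0.686 and 0.367 CPM after vemurafenib, against 7.96, 5.77 and 4.43 CPM in controls. Its highest vemurafenib value, in replicate 1, was still below the lowest control. Its log2 change was -2.73 (SE 0.417, adjusted p = 0.00027), and -3.50 without vemurafenib replicate 1 (adjusted p = 1.84e-05). Of the endothelial markers, PECAM1 had 0.0854 CPM after vemurafenib against 2.93 CPM in controls, on 4 counts against 135. Its log2 change was -5.00 (adjusted p = 0.000114). VWF also fell (log2 change -1.32, adjusted p = 0.00816), while KDR, TIE1, TEK and ESAM did not pass. The part of these markers in the fall of HEY2 was not tested.

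HES2, a HES repressor whose promoter window lacks the core, was nearly undetected after vemurafenib, with 1, 0 and 1 counts, against 57, 135 and 88 counts in control libraries. These were 0.0650, 0 and 0.0612 CPM after vemurafenib, against 3.72, 8.96 and 5.65 CPM in controls, and no vemurafenib library came near the lowest control. Over the groups the normalised ratio was 0.00688 (exact 95% counting interval 0.000829 to 0.0251), that is 145.4-fold lower, with adjusted p = 2.89e-06. Of 8 listed markers of keratinocytes and epithelium, 7 were in the table and 3 tested, and their sum was 19.1 to 29.6 CPM in vemurafenib libraries and 43.9 to 45.9 CPM in controls, with CDH1 at 0 in both groups. The lower sum lay mainly in CLDN4, a tight junction protein with 3.85 CPM after vemurafenib against 24.4 CPM in controls, and KRT14, a keratin with 0.463 against 4.41 CPM. KRT10 was not lower, with 18.6 CPM after vemurafenib against 15.2 CPM in controls, nor was EPCAM, with 0.144 against 0.0435 CPM. Their part in the fall of HES2 and JAG2 was not tested.

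HEY1, a relative of HEY2, moved against the other targets. It had 22.1, 18.0 and 17.5 CPM in vemurafenib libraries, against 8.35, 8.23 and 10.2 CPM in control libraries. Every vemurafenib value was above every control value, and the log2 change was 1.10 (SE 0.162, adjusted p = 0.000201), a 2.15-fold rise. NRARP, the feedback inhibitor, was below the filter in all groups, with no count in any vemurafenib or cisplatin library and 1 count in the control libraries together. A floor of 3 counts over a group is 0.0628, 0.0679 and 0.0652 CPM for these groups, so a fall of NRARP was not detectable at this depth. A rise of NRARP above the floor was not seen after either drug.

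On day 7 after cisplatin, 7 of the 9 tested members were lower than in controls, none was higher, and JAG1 and NOTCH3 did not pass, with a median log2 change of -0.83. So 7 of 9 were called, where 46.3% of all tested genes were. Over all tested genes 23.5% were lower and 22.7% were higher, with a median of 0.00, and 4 members and 9.3% of all tested genes were called with a log2 change of -1 or less. Cisplatin and control values did not overlap for any of the 9, where 67.0% of all tested genes did not overlap. The controls are the same 3 libraries as in the vemurafenib comparison.

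JAG1 was the member whose cisplatin values all lay above the controls, with 128.3, 131.5 and 127.9 CPM after cisplatin, against 94.0, 94.0 and 100.9 CPM in controls. The log2 change of 0.42 (SE 0.258, 95% interval -0.14 to 0.99) did not pass, with adjusted p = 0.2. In the shared fit the spread of JAG1 includes the vemurafenib group, where the SD was 8.71 CPM at a mean of 15.7 CPM, against 1.98 CPM at 129.2 CPM after cisplatin and 3.99 CPM at 96.3 CPM in controls. Fitted on cisplatin and control libraries alone, the change was 0.43 with adjusted p = 0.00014. It also passed without vemurafenib replicate 1 (0.0301) and without vemurafenib replicate 3 (0.0125), and the adjusted p ranged from 0.00014 to 0.338 over 18 alternatives. JAG2 had 0.692, 1.15 and 1.86 CPM after cisplatin, against 2.87, 3.72 and 4.17 CPM in controls, a log2 change of -1.52 (SE 0.33, adjusted p = 0.00272).

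The receptors NOTCH1 and NOTCH2 fell after cisplatin as well. NOTCH1 had 35.2, 40.3 and 44.0 CPM after cisplatin, against 63.4, 64.0 and 76.0 CPM in controls (log2 change -0.77, SE 0.119, adjusted p = 0.000312). NOTCH2 had 354.0, 347.4 and 352.6 CPM after cisplatin, against 580.1, 539.1 and 586.6 CPM in controls, values that were tightly grouped and far apart. Its log2 change was -0.69 (SE 0.208, adjusted p = 0.0171). The call was lost without control replicate 3 (0.0523), without cisplatin replicate 2 (0.0534) and on the TPM scale with a pseudocount of 1 (0.0956) or 0.1 (0.0999). The adjusted p ranged from 5.38e-06, without vemurafenib replicate 1, to 0.0999. Of the copies of NOTCH2, NOTCH2NLC fell by 0.39 on the log2 scale (adjusted p = 0.0138), while NOTCH2NLA was at -0.18 (0.276), NOTCH2NLB at 0.15 (0.439) and NOTCH2NLR at -0.13 (0.6). NOTCH3 had 18.4, 16.7 and 15.2 CPM after cisplatin, against 21.6, 19.2 and 19.8 CPM in controls. Its log2 change of -0.27 (95% interval -0.56 to 0.02) did not pass (adjusted p = 0.119, range 0.035 to 0.382), but did without vemurafenib replicate 1 (0.035) and on these 2 groups alone (0.0448).

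All 4 tested targets fell after cisplatin. HES1 had 28.0, 31.1 and 31.3 CPM after cisplatin, against 54.5, 81.7 and 78.2 CPM in controls (log2 change -1.25, SE 0.152, adjusted p = 5.13e-05). HES2 had 1.52, 1.90 and 2.06 CPM, against 3.72, 8.96 and 5.65 CPM in controls (log2 change -1.73, SE 0.33, adjusted p = 0.00121), so it remained detectable where vemurafenib left 2 counts in all. HEY1 had 4.29, 4.89 and 5.86 CPM, against 8.35, 8.23 and 10.2 CPM in controls, and here it fell with the other targets (log2 change -0.83, SE 0.175, adjusted p = 0.00228). HEY2 had 2.84, 2.78 and 1.86 CPM, against 7.96, 5.77 and 4.43 CPM in controls (log2 change -1.28, SE 0.369, adjusted p = 0.0142). Summed keratinocyte and epithelial markers were at 28.0 to 31.0 CPM in cisplatin libraries, against the 43.9 to 45.9 CPM of controls, with CLDN4 at 8.36 against 24.4 CPM, KRT14 at 0.473 against 4.41 CPM and KRT10 at 19.4 against 15.2 CPM. The call of HEY2 was lost without control replicate 1 (0.07) and without cisplatin replicate 3 (0.0605), with a range from 0.00126 to 0.07. Endothelial markers summed to 57.5 to 64.8 CPM in cisplatin libraries and 23.6 to 28.1 CPM in controls, of which the receptor KDR made up 53.6 and 16.5 CPM on average. Lower means than in controls were found for PECAM1 (1.57 against 2.93 CPM), TIE1 (0.675 against 1.13 CPM) and ESAM (2.89 against 3.87 CPM). Higher means were found for VWF (1.54 against 1.265 CPM) and TEK (1.02 against 0.631 CPM). Of the 7 endothelial markers 6 were tested. Their part in these results was not tested.

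**Figure D2:**
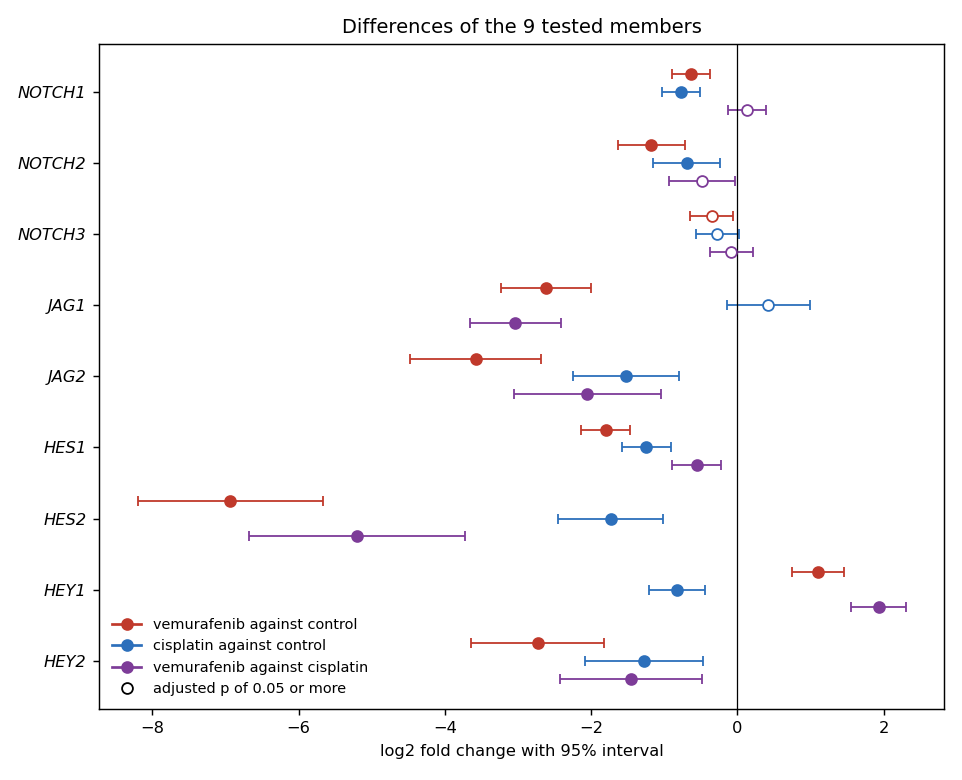
Log2 fold change with its 95% interval (horizontal axis) of each tested member in the 3 comparisons; open symbols have an adjusted p of 0.05 or more. HEY1 lies at 1.10 for vemurafenib against control and -0.83 for cisplatin against control, and JAG1 at -2.61 and 0.42.

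The difference between the drug effects was tested directly as vemurafenib against cisplatin. Of the 9 tested members, 5 were lower after vemurafenib, 1 was higher and 3, the receptors, did not pass, with a median log2 difference of -0.55. Thus 6 of 9 were called, where 43.7% of all tested genes were. Of all tested genes 20.8% were lower and 23.0% were higher, with a median of 0.03, and 4 members and 9.26% of all tested genes were called lower with a difference of -1 or less. Values did not overlap for 7 of the 9 members and for 54.0% of all tested genes.

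The ligands and targets differed, whereas the receptors were not shown to. JAG1 was lower after vemurafenib by a log2 difference of -3.03 (SE 0.285, adjusted p = 5.92e-06), with 8.84 to 25.5 CPM after vemurafenib and 127.9 to 131.5 CPM after cisplatin. Without vemurafenib replicate 1 the difference of JAG1 was -2.75 (adjusted p = 5.59e-07). JAG2 had a difference of -2.05 (SE 0.46, adjusted p = 0.0037). HEY1 was higher after vemurafenib by 1.93 (SE 0.171, adjusted p = 3.63e-06), so that the opposite directions of its changes against control also differed from each other. HES1 was lower by 0.55 (SE 0.154, adjusted p = 0.0125), the smallest passing difference among the members. HES2 had a normalised ratio of 0.0229 (exact 95% counting interval 0.00272 to 0.0853) of vemurafenib over cisplatin, with adjusted p = 7.96e-05.

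HEY2 differed by -1.45 (SE 0.446, adjusted p = 0.0203), and the call was lost without vemurafenib replicate 2 (0.0598), vemurafenib replicate 3 (0.055), cisplatin replicate 1 (0.0622) or cisplatin replicate 2 (0.0621). Its adjusted p ranged from 0.00106 to 0.0622, and the difference was -2.23 (adjusted p = 0.00106) without vemurafenib replicate 1. For NOTCH1 the 95% interval of the difference ran from -0.13 to 0.40 (adjusted p = 0.386), and for NOTCH3 from -0.38 to 0.21 (0.656). All NOTCH2 values after vemurafenib (151.3 to 317.5 CPM) lay below those after cisplatin (347.4 to 354.0 CPM). NOTCH2 had a difference of -0.48 (interval -0.94 to -0.03, adjusted p = 0.0807). It passed without vemurafenib replicate 1 (-0.22, 0.0336) or without vemurafenib replicate 2 (-0.70, 0.0205), its adjusted p lying between 0.0205 and 0.155 over the alternatives, so 1 library moved its size by more than its standard error of 0.208.

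**Figure D3:**
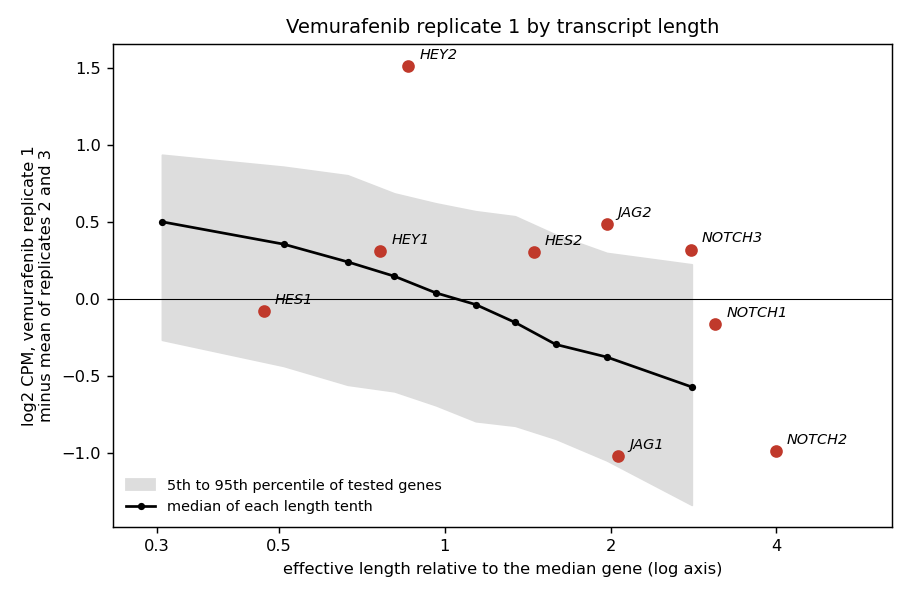
Log2 CPM of vemurafenib replicate 1 minus the mean of replicates 2 and 3 (vertical axis) against effective transcript length relative to the median gene (log axis), for the members (red) and for all tested genes in 10 classes of equal size by length (line: median, band: 5th to 95th percentile). NOTCH2 and JAG1 lie near -1 and HEY2 at 1.51.

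The departure of vemurafenib replicate 1 was set beside its length trend. With all tested genes in 10 classes of equal size by length, the longest class had a median log2 difference of -0.57 between this library and replicates 2 and 3, and the shortest class one of 0.50. NOTCH2, in the longest class, differed by -0.99, and 16.2% of the genes of that class were lower still. JAG1 differed by -1.02, with 5.36% of its class lower. NOTCH1 at -0.16 and NOTCH3 at 0.32 are in the same class as NOTCH2, so the receptors departed unequally. HEY2 was higher in replicate 1 by 1.51, above 99.7% of the genes of its class. The part of this trend in the members' results was not tested.

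The rest of the pathway was described with 10 lists of 76 genes in all, 66 of them other than the members. Of these 66, 60 were tested. After vemurafenib 9 were higher and 16 lower than in controls with a median log2 change of -0.17, and after cisplatin 9 were higher and 14 lower with a median of -0.03. In vemurafenib against cisplatin 12 were higher and 19 lower, with a median of -0.13. The background for these counts, and for those of each list below, is the share of all tested genes called in each direction. In the same order of comparisons 22.0%, 22.7% and 23.0% of all tested genes were higher and 22.9%, 23.5% and 20.8% lower.

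Outside the members, neither of the tested Delta ligands, DLL1 and DLL3, was called. DLL3 had 4.09 ± 1.11 CPM after vemurafenib, 5.40 ± 0.991 CPM after cisplatin and 5.04 ± 0.791 CPM in controls (adjusted p = 0.339 after vemurafenib and 0.764 after cisplatin). As TPM, DLL3 stood at 4.13 ± 0.943 after vemurafenib, where its libraries overlapped those of JAG1, at 5.49 ± 0.858 after cisplatin and at 4.84 ± 0.776 in controls. DLL1 averaged 0.485, 0.681 and 0.522 CPM in the same order of groups (adjusted p = 0.849 and 0.47), and DLL4 was below the filter with 5, 10 and 8 counts. Of other HES and HEY genes, HES7, the repressor known from the segmentation clock, had 0.377 ± 0.0661 CPM after vemurafenib, 1.70 ± 0.415 CPM after cisplatin and 7.09 ± 2.71 CPM in controls. It fell by 4.20 (SE 0.372, adjusted p = 4.17e-06) after vemurafenib and by 2.06 (SE 0.301, adjusted p = 2e-04) after cisplatin on the log2 scale. HES4 fell by 1.37 after vemurafenib (adjusted p = 0.00793) and by 2.37 after cisplatin (adjusted p = 0.000556), with 0.824 ± 0.379, 0.408 ± 0.0713 and 2.14 ± 0.575 CPM in the 3 groups. HES6, which promotes neurogenesis, was not called in either comparison against control (adjusted p = 0.544 and 0.567), and HEYL had 1 count in all, after cisplatin.

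The nuclear partners and cofactors were mixed. RBPJ, the DNA-binding partner of all Notch receptors, had 83.4, 124.6 and 131.4 CPM after vemurafenib, 232.5, 220.1 and 211.3 CPM after cisplatin and 233.1, 257.7 and 259.9 CPM in controls. The vemurafenib libraries lay below both other groups. RBPJ fell by 1.15 on the log2 scale after vemurafenib (SE 0.151, adjusted p = 9.46e-05) and did not pass after cisplatin (log2 change -0.18, adjusted p = 0.357, 0.0433 without vemurafenib replicate 1, highest 0.654 over the alternatives). The difference between the drugs was -0.97 (adjusted p = 0.000313). KAT2B, an acetyltransferase that can join the Notch complex, was at 434.4 ± 120.3 CPM after vemurafenib, 130.8 ± 20.3 CPM after cisplatin and 45.0 ± 3.53 CPM in controls, rises of 3.27 (adjusted p = 2.82e-07) and 1.54 (adjusted p = 4.39e-05) on the log2 scale. KAT2A, its paralogue, rose by 1.02 (adjusted p = 9.61e-05) and 0.65 (adjusted p = 0.00215). The coactivator MAML2 fell after cisplatin by 1.00 (adjusted p = 0.00145) and was at -0.34 after vemurafenib (adjusted p = 0.174, and 0.0318 without vemurafenib replicate 2). Of 9 nuclear activators, 2 were higher and 2 lower after vemurafenib, and 2 were higher and 3 lower after cisplatin.

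Corepressors had 1 rise and 3 falls among 11 after vemurafenib and 4 falls after cisplatin. TLE4, a Groucho-type corepressor, fell by 1.32 after vemurafenib (adjusted p = 0.000126), with 52.0 ± 16.4 CPM against 129.5 ± 8.68 CPM in controls. TLE2 rose by 0.61 after vemurafenib (adjusted p = 0.0333, and 0.0809, 0.144 and 0.0817 when control replicate 2, control replicate 3 or vemurafenib replicate 1 was left out) and fell by 1.15 after cisplatin (adjusted p = 0.00168). TLE3 fell by 1.00 after cisplatin (adjusted p = 0.000464).

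Of 9 enzymes and subunits that cut the receptor, 3 rose and 1 fell after vemurafenib, and 3 rose and none fell after cisplatin. ADAM10, the protease of the first activating cut, had 332.7 ± 64.4 CPM after vemurafenib, 225.6 ± 7.52 CPM after cisplatin and 183.2 ± 5.06 CPM in controls. It rose by 0.86 after vemurafenib (adjusted p = 0.000273) and was at 0.30 after cisplatin (adjusted p = 0.0811). The cisplatin difference passed on these 2 groups alone (0.00163), without vemurafenib replicate 1 (0.00239) and without vemurafenib replicate 2 (0.0469), with adjusted p up to 0.191. NCSTN, which encodes the gamma-secretase subunit nicastrin, rose after both drugs, by 0.87 (adjusted p = 2.21e-05) and 1.13 (adjusted p = 2.85e-06). PSEN2, a catalytic subunit, rose by 0.71 after cisplatin (adjusted p = 0.00102). FURIN, the convertase that matures the receptor, fell by 0.81 after vemurafenib (adjusted p = 7.62e-05). ADAM17 was at -0.0053 after vemurafenib (adjusted p = 0.979) and -0.25 after cisplatin (adjusted p = 0.138, 0.0132 on these 2 groups alone and 0.0146 without vemurafenib replicate 1).

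LFNG, a Fringe glycosyltransferase that alters which ligands a receptor answers to, fell after both drugs. It had 1.24 ± 0.52 CPM after vemurafenib, 1.31 ± 0.156 CPM after cisplatin and 6.56 ± 0.935 CPM in controls, log2 changes of -2.40 (adjusted p = 3.08e-05) and -2.31 (adjusted p = 4.17e-05). Of the other 4 glycosyl modifiers 1 rose and 1 fell after vemurafenib and none passed after cisplatin; the rise was of POFUT1 by 0.32 (adjusted p = 0.0329), lost in 10 of 18 alternatives with adjusted p up to 0.121. Of 4 ligand ubiquitin ligases none was called after vemurafenib, and after cisplatin MIB2 rose by 0.37 (adjusted p = 0.0233), a call lost in each fit that left out a cisplatin library and in those without control replicate 1 or 3, at 0.0554 to 0.0768, and NEURL1B fell by 3.54 (adjusted p = 6.76e-05). Of 11 genes of receptor trafficking and turnover, 2 rose and 4 fell after vemurafenib, and 2 rose and 2 fell after cisplatin. NUMB, an endocytic inhibitor of Notch, fell by 0.59 after vemurafenib (adjusted p = 0.00207) and was at 0.10 after cisplatin (adjusted p = 0.508). NEDD4, a ubiquitin ligase, fell by 1.03 (adjusted p = 0.00196) and DTX1 by 1.00 (adjusted p = 0.00122) after vemurafenib. FBXW7, which marks the intracellular domain for degradation, rose by 0.61 after vemurafenib (adjusted p = 0.00322) and by 0.97 after cisplatin (adjusted p = 0.000147). DTX4 fell by 2.25 after cisplatin (adjusted p = 7.28e-05) and was at 0.04 after vemurafenib (adjusted p = 0.908).

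Among 8 noncanonical ligands, of which 5 were tested, 2 fell and none rose after vemurafenib, and 1 rose and 1 fell after cisplatin. DNER, a neuronal membrane protein of this kind, fell by 2.73 (adjusted p = 9.71e-05) and 1.46 (adjusted p = 0.00345). MFAP2, a microfibril protein, fell by 1.13 after vemurafenib (adjusted p = 9.25e-06), and DLK2 rose by 0.89 after cisplatin (adjusted p = 0.00739). In vemurafenib against cisplatin 4 of the 5 were lower, EGFL7 by 0.86 (adjusted p = 0.00545).

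**Figure D4:**
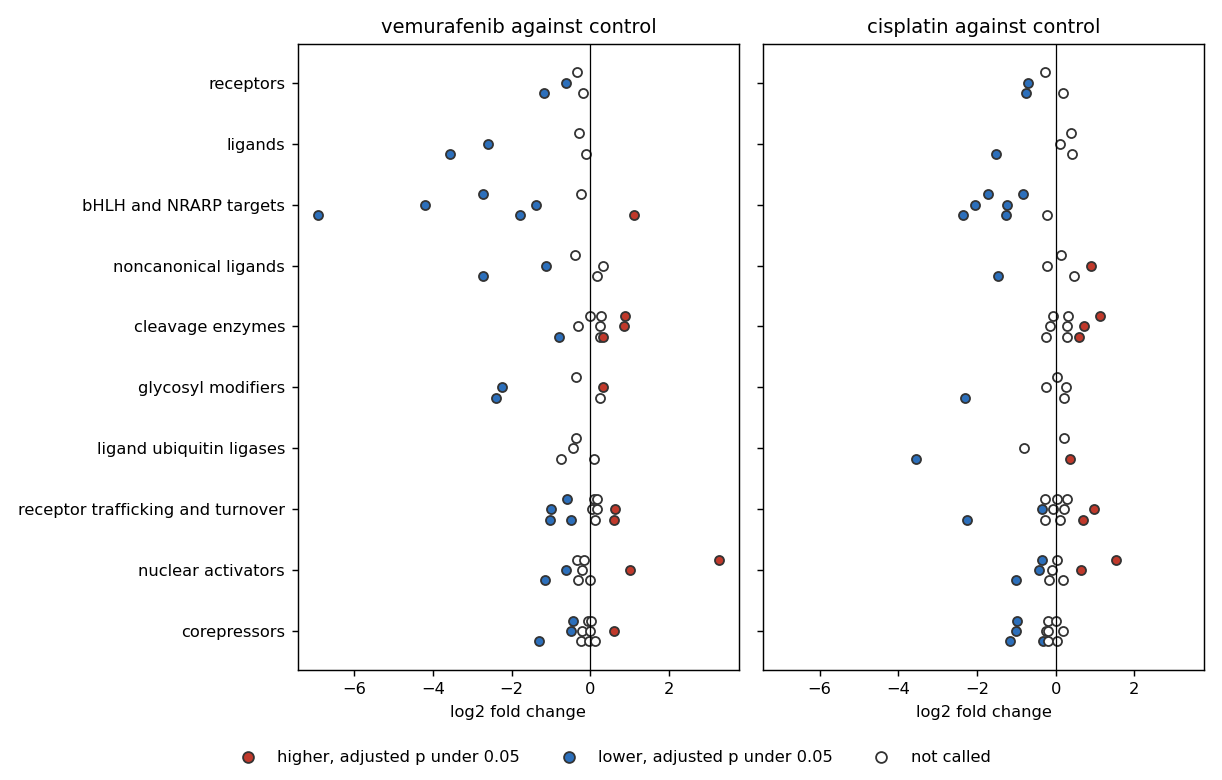
Log2 fold change (horizontal axis, the same in both panels) of each tested gene of the 10 pathway lists after vemurafenib and after cisplatin, each against control; filled symbols passed an adjusted p of 0.05. The targets hold the lowest value after vemurafenib, HES2, and 1 rise, HEY1.

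The genes whose levels ran most like each member were sought by Pearson's r of log2 CPM over the 9 libraries, among the 11914 tested genes that averaged 50 counts or more. With 3 groups of 3, r can reflect the order of the groups and also the departure of vemurafenib replicate 1. The part of each was not tested. Between 8 (NOTCH3) and 246 (JAG1) genes had an r above 0.95 with a member. JAG1 was most like MYO1E, an unconventional myosin (r = 0.996), and ARNT2 (0.994). HES1 was most like RHOF (0.987) and NDE1 (0.984), and HES2 most like APOBEC3F (0.997) and PLIN2, which coats lipid droplets (0.993). HEY1 was most like ATOH8, another basic helix-loop-helix gene (0.996), which had 40.9 ± 9.15 CPM after vemurafenib, 2.23 ± 0.606 CPM after cisplatin and 6.94 ± 1.58 CPM in controls, and like CSRP2 (0.991). HEY2 followed CASTOR2 (0.988) and ETHE1 (0.982), and JAG2 followed COL13A1 (0.981) and PHC2 (0.98). NOTCH1 was most like IL1RL1 (0.983) and the transcription factor RUNX3 (0.98), NOTCH2 like KLF12 (0.989) and PHF3 (0.988), and NOTCH3 like GUSB (0.967) and BTBD6 (0.963).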

How the data were processed

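Libraries were made from total RNA by random-hexamer priming, PCR and circularisation, per the labels' protocols. The submitters' processing notes name HISAT2 2.0.4 and hg38; which tool counted, and with which annotation, is not given. The authors deposited estimated counts, TPM and FPKM for each gene and sample. Of the estimated counts in the deposited table, 13.6% to 14.1% per sample were not whole (tolerance 1e-06), and all were rounded; the deposited TPM served for levels between genes, relative effective length and 2 alternatives, and the deposited FPKM was not used. Gene identifiers gave coordinates from the RefSeq table of GRCh38.p14 (18153 matched).

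Genes were kept by filterByExpr (13989), scaled by TMM, and fitted as 3 group means over all 9 samples with edgeR 4.0.16 in R 4.3.3 (6 residual degrees of freedom, quasi-likelihood F test, two-sided, Benjamini-Hochberg, threshold 0.05). The standard error is the log2 change divided by the square root of F, and its 95% interval uses the moderated degrees of freedom. Where a group of a tested gene has 1 to 3 counts, an exact binomial 95% counting interval is given; intervals and floors cover counting error only. The code was checked on counts simulated with set fold changes and 1 common spread for all genes. Of simulated 1.5-fold changes 40.3%, 43.3% and 49.3% were called for vemurafenib against control, cisplatin against control and vemurafenib against cisplatin. A smaller change can therefore be missed.

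The members, lists, named genes and alternatives were chosen with earlier results of these data known. Named genes were the 10 members, a fixed panel of 13 and, per list and comparison, up to 2 further called genes of largest change with a mean of at least 50 counts in the higher group; NEURL1B was named after its value was seen. Replicate numbers appear in the labels, and they were used as a block in an alternative fit. Deviations of same-numbered vemurafenib and control libraries from their group means correlated across genes at 0.176, 0.137 and 0.185. Libraries of different number were not compared in this way, so these values do not show a pairing. Alternatives were DESeq2 1.42.0, limma 3.58.1 on log2(TPM + pseudocount), other scalings and filters, the 2 groups alone, the replicate block and each library left out.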

Additional observations from a re-analysis of the deposited data

How the results depend on the processing

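Over 18 alternatives, every member that was called against control after vemurafenib kept its direction and call, and between 8 and 9 members were called (8 in the fit reported). After cisplatin 6 to 9 were called (7), and between the drugs 5 to 7 (6). Counts over all genes stayed within 1.5 times: 5063 to 7672 (6282), 5237 to 8642 (6471) and 4767 to 7157 (6119). With total counts as the only scaling the median of all genes after vemurafenib moved to 0.11 on the log2 scale, and 60.0% of calls were higher, against 49.1% with TMM; no member changed direction. With replicate number as a block, 9, 7 and 6 members and 6543, 6857 and 6442 genes were called. NOTCH3 after vemurafenib was the 1 member whose call this block changed, and the cause was not tested. Same-numbered libraries correlated in their deviations at 0.21, 0.081 and 0.125 for cisplatin and control, and at 0.166, 0.013 and 0.102 for the 2 drugs.

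Signs changed only for named genes called in neither setting. After vemurafenib ADAM17 was at 0.10 with total counts and 0.08 on either TPM scale (0.0788 and 0.0797), and between -0.13 and 0.13 with 1 library left out. DLL1 was at 0.0095 and 0.043 on the TPM scales, and between -0.37 and 0.18 with 1 library left out. After cisplatin, with 1 library left out, DLL3 lay between -0.021 and 0.24, NOTCH4 between -0.21 and 0.38 and HES6 between -0.38 and 0.034. Between the drugs HES6 was at 0.022 with total counts and 0.0046 on log2(TPM + 0.1), and with 1 library left out HES6 lay between -0.32 and 0.16 and NOTCH4 between -0.56 and 0.033. DLL1 was not tested under the filter of 1 CPM, and neither DLL1 with vemurafenib in a fit of 2 groups nor HES4 in that of the 2 drugs passed the filter. Depth limits HES2 after vemurafenib (2 counts), JAG2 (14 counts) and NRARP.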
